A study of Mus musculus with 26 samples.

Results

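The late cornified envelope (Lce) and small proline-rich (Sprr) genes encode short precursors of the cornified envelope, and their transcripts were measured in cultured mouse keratinocytes of both Pla2g4d genotypes, with and without IL17A and TNFα. The members were all genes of the count table whose symbol starts with Lce or Sprr followed by a digit, which gave 38 of 56738 gene symbols. They comprise 14 Lce1, 6 Lce3, 1 Lce6, 2 Sprr1, 13 Sprr2, 1 Sprr3 and 1 Sprr4 genes. Of these, 37 were among the 16893 genes tested, which had a mean normalized count over 10 across the libraries. Sprr2c-ps, a pseudogene, did not pass that filter, with 0 to 3 counts in the basal libraries and 8 to 48 counts in those with cytokines.

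The cornified envelope is the insoluble protein shell that replaces the plasma membrane when a keratinocyte dies to form the outermost skin layer. Transglutaminases cross-link loricrin, involucrin and other precursors into it, and the small proline-rich proteins act as short bridges between them, while the late cornified envelope proteins are added in the last steps. Genes of the Lce1 subfamily are transcribed in healthy differentiating epidermis, whereas Lce3 and many Sprr2 genes are known for low levels in intact skin and high levels in wounded or psoriatic skin.

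Primary keratinocytes came from the epidermis of 2-day-old C57BL/6NJ mice, 5 wild-type (WT) and 8 Pla2g4d-deficient (KO) animals. The KO allele is a deletion in exon 3 of Pla2g4d, made with CRISPR-Cas9, which encodes a phospholipase and transacylase of the skin. Cells of each mouse grew for 4 days in EpiLife medium with HKGS supplement and 0.06 mM CaCl2, a low calcium concentration that holds back terminal differentiation, and were then left untreated (basal) or given IL17A and TNFα, each at 20 ng/ml, for 24 h. This gave 26 RNA libraries from 13 mice in 4 groups: basal WT and cytokine-treated WT with 5 libraries each, and basal KO and cytokine-treated KO with 8 libraries each. Cornification was not measured in these cultures, and the sex and litter of the mice were not labelled. The KO line was bred as homozygotes after backcrossing, so effects of genotype, breeding line and litter cannot be told apart.

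The total count per library ran from 42072745 to 78102858, with group medians of 55635255 in basal WT, 57187471 in cytokine-treated WT, 55265592 in basal KO and 47544479.5 in cytokine-treated KO. Levels are given in CPM, the counts of a gene scaled by edgeR to a common library size. Lce and Sprr genes together held between 0.243% and 0.509% of the counts of a basal library and between 0.414% and 1.003% with cytokines. A gene was called changed when the adjusted p was under 0.1 and the fold change over 1.5. Tests were run in edgeR by quasi-likelihood, and each p printed as edgeR adjusted p was adjusted over all 16893 genes by the Benjamini-Hochberg method. In bulk RNA, fewer cells of a type and less RNA per cell cannot be told apart.

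The targeted gene was examined first. Pla2g4d stood at 1.22, 4.41, 3.14, 3.34 and 4.63 CPM in the basal WT libraries of mice 1 to 5, and at 28.6, 65.2, 47.1, 57.2 and 62.9 CPM in their cytokine-treated libraries. In KO libraries the lowest, median and highest values were 1.15, 2.10 and 2.98 CPM under basal conditions and 29.2, 36.2 and 59.2 CPM with cytokines. The WT and KO groups overlapped under both conditions, and every cytokine-treated library was above every basal library of its genotype. Cytokines raised Pla2g4d by 3.97 ± 0.29 (log2 fold change ± SE) in WT (edgeR adjusted p = 8.39e-12) and by 4.22 ± 0.24 in KO (edgeR adjusted p = 2.01e-14). KO against WT gave −0.70 ± 0.26 under basal conditions (edgeR adjusted p = 0.0935, called) and −0.45 ± 0.23 with cytokines (edgeR adjusted p = 0.345, not called). A gene-level count adds up all exons, most of which lie outside the deletion in exon 3, so these values do not check the genotype labels.

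All 38 genes lie on chromosome 3 of the GRCm39 assembly between positions 92123106 and 92926367, a stretch of 803.3 kb within the epidermal differentiation complex. The Sprr2 genes come first in this stretch, followed by the Sprr1, Sprr3 and Sprr4 genes, Lce6a, 13 of the Lce1 genes, the Lce3 genes and last Lce1m. Some neighbours are near copies. Of all 150-base windows of the spliced transcript, 93.8% in Sprr2a1, 89.0% in Sprr2a2 and 19.0% in Sprr2a3 occur exactly in another of these 3 genes, and Sprr2a1 and Sprr2a2 also overlap on the same strand. Among the Lce3 genes the shared part was 15.1% in Lce3c, 3.22% in Lce3d, 29.5% in Lce3e and 36.8% in Lce3f. Values of these 7 genes are uncertain as single genes, since counting may have split or dropped shared reads, and the other 31 genes had no shared window.

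Promoters were compared because genes of the Sprr2 and Lce3 subfamilies moved together. A window from 250 bases before to 50 bases after each annotated start was searched on both strands for the TATA box written as TATAAA, the AP-1 motif written as TGANTCA, the C/EBP motif written as TTNNGNAA, the GATA factor motif written as AGATAA, the KLF motif written as CCACCC and the kappa B consensus, where N is any base. Shown here are 220 bases before the start of 7 genes, chosen after their values were seen: Sprr2e and Sprr2f, which rose with cytokines, Sprr2a3, a Sprr2 gene that did not, Sprr1a, an abundant gene that did not, Lce3a and Lce3b, which rose, and Lce1m, which fell. Capitals mark TATA, AP-1 and C/EBP matches on either strand, so that a match can read as its reverse complement.
Sprr2e: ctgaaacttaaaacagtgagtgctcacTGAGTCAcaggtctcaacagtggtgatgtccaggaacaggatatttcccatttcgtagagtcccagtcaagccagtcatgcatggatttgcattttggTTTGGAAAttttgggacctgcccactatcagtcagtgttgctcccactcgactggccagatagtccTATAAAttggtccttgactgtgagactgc
Sprr2f: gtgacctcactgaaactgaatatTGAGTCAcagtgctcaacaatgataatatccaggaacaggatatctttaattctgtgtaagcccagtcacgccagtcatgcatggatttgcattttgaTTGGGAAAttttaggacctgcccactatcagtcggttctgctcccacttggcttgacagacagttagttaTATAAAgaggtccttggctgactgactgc
Sprr2a3: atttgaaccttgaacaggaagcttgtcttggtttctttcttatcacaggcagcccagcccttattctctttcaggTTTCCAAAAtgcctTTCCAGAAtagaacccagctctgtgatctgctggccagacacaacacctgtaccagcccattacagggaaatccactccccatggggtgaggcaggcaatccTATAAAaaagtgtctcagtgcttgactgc
Sprr1a: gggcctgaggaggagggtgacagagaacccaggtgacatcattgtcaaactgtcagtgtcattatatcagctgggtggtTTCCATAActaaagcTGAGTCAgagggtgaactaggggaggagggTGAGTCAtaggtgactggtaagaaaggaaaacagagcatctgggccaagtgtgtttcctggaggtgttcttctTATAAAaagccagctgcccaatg
Lce3a: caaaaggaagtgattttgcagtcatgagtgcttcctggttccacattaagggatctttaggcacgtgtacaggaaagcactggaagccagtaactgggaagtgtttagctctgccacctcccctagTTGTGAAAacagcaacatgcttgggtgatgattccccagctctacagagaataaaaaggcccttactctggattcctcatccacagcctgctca
Lce3b: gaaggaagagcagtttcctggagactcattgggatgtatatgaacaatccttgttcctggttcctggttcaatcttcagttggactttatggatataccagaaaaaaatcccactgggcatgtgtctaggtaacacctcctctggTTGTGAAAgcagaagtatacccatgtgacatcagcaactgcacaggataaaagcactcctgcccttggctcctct
Lce1m: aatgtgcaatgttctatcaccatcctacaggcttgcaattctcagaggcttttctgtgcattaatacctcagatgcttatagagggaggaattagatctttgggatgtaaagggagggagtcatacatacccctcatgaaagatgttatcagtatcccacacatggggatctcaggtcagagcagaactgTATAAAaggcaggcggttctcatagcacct

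In GRCm39 these are chr3:92259230-92259449 (plus strand) for Sprr2e, chr3:92272274-92272493 (plus strand) for Sprr2f, chr3:92192504-92192723 (plus strand) for Sprr2a3, chr3:92393209-92393428 (minus strand) for Sprr1a, chr3:92833538-92833757 (minus strand) for Lce3a, chr3:92840066-92840285 (plus strand) for Lce3b and chr3:92926368-92926587 (minus strand) for Lce1m. AP-1 letters were present in 7.14% of the windows of 21770 protein-coding genes. They were found in 9 of 13 Sprr2 windows, which are those of the 9 tested Sprr2 genes that rose with cytokines, and in none of the 3 Sprr2a windows. Sprr2c-ps also held none, although with no filter on low counts it was called higher with cytokines, at 3.97 ± 0.95 in WT (edgeR adjusted p = 0.00209) and 3.94 ± 0.77 in KO (edgeR adjusted p = 0.000155). Both Sprr1 windows also held AP-1 letters, although neither Sprr1 gene rose, and 0 of 14 Lce1 and 0 of 6 Lce3 windows held them. The form TGAGTCA occurred in all 9 of these Sprr2 windows. In 7 of them, Sprr2d, Sprr2e, Sprr2f, Sprr2g, Sprr2h, Sprr2i and Sprr2k, an AP-1 match started between 198 and 193 bases before the start. Sprr2 genes are neighbours with similar windows, so their matches are not separate observations.

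C/EBP letters were common, in 40.5% of all windows, and were found in 6 of 6 Lce3, 12 of 13 Sprr2, 1 of 2 Sprr1 and 2 of 14 Lce1 windows. In 5 of the 6 Lce3 windows they read TTGTGAAA, as in Lce3a and Lce3b. TATA letters were in 13.2% of all windows and in 10 of 13 Sprr2, 2 of 2 Sprr1, 2 of 14 Lce1 and 1 of 6 Lce3 windows. These counts depend on the annotated starts. In Sprr2j-ps the TATA letters began 10 and 20 bases after the start, and in Lce3e 243 bases before it. Sprr2a1 held no TATA letters, and its first C/EBP match began at −24, against −145 in Sprr2a2 and Sprr2a3. Kappa B letters were in 8.97% of all windows and in 0 of 38 windows here, GATA letters in 10.6% and in 3, and KLF letters in 32.5% and in 6. No base was shared by matches of different motifs in the 38 windows. These matches describe letters only, and binding was not measured. Of the 38 genes, 34 were also in the RefSeq promoter table, and 32 of those windows overlapped the ones used here.

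**Figure D1:**
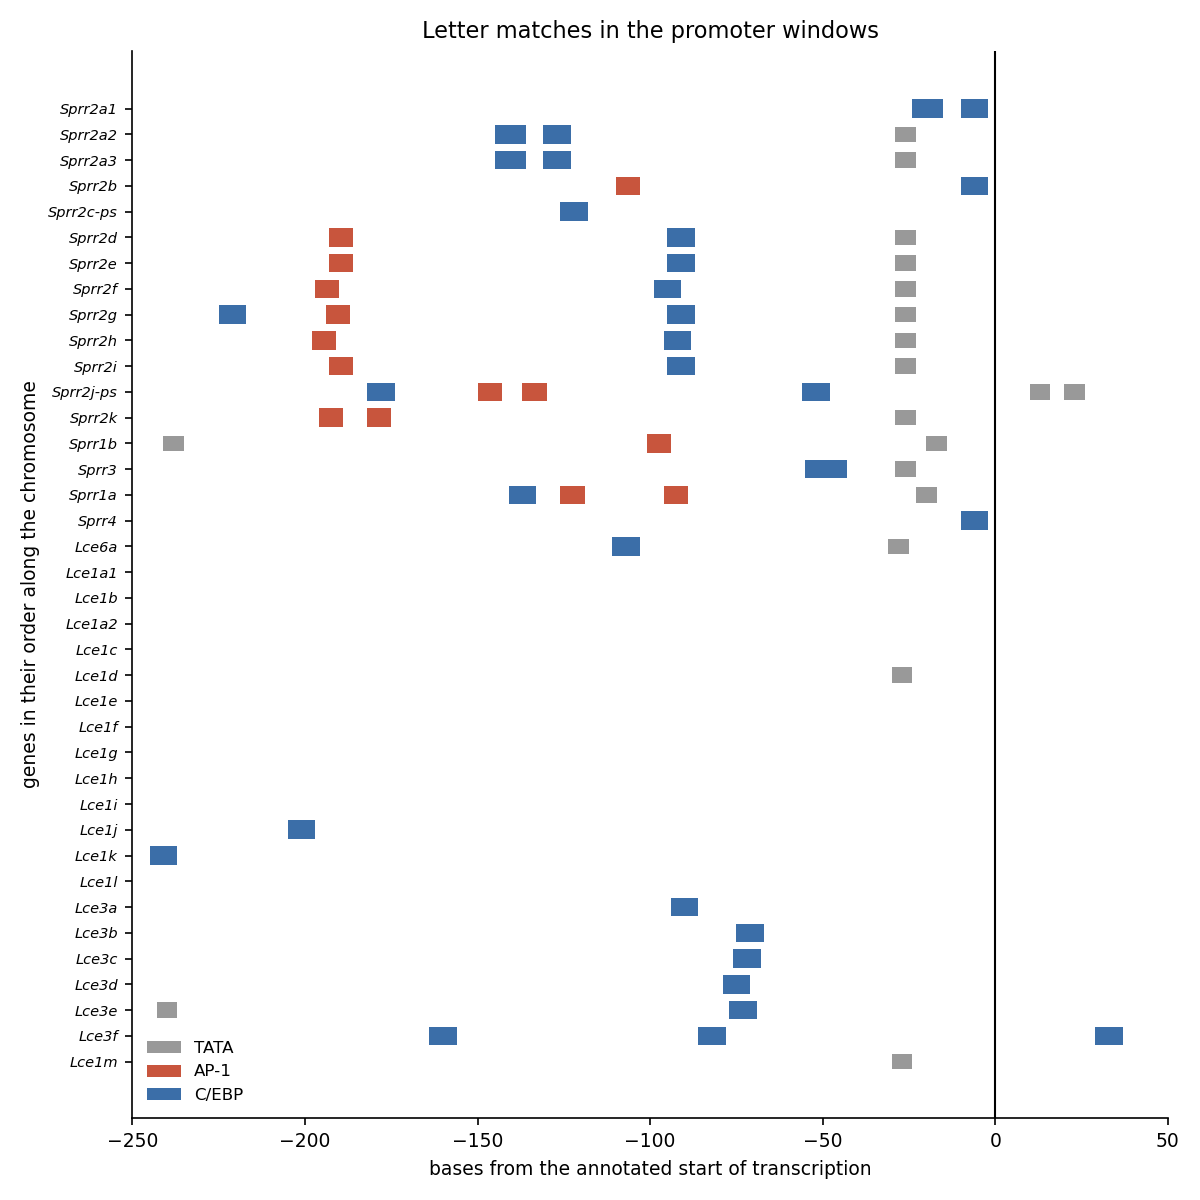
Letter matches to the TATA, AP-1 and C/EBP motifs (coloured blocks) against the distance in bases from the annotated start, with 1 line for each of the 38 genes in chromosome order. AP-1 matches appear in 9 Sprr2 and 2 Sprr1 genes and in no Lce gene, and C/EBP matches in all 6 Lce3 genes.

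Levels of different genes were compared per kilobase of exon. Averaged over all libraries, the highest levels were those of Sprr2d at 996 CPM per kb, Sprr1a at 847, Sprr1b at 747 and Sprr2h at 704 CPM per kb. Sprr1a and Sprr1b, 2 cross-bridging precursors, led under basal conditions: in basal WT they stood at 1013 ± 318 and 972 ± 279 CPM per kb (mean ± SD, n = 5), and their ranges overlapped. With cytokines the first place in WT went to Sprr2d at 2386 ± 719 CPM per kb. The Lce1 subfamily was led by Lce1a2 at 74.3 CPM per kb and the Lce3 subfamily by Lce3c at 131 CPM per kb over all libraries. Sprr3, best known from oesophagus and tongue, was near the limit of detection at 0.197 CPM per kb.

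The make-up of the family's transcripts changed with treatment in both genotypes. The 2 Sprr1 genes held 67.9 ± 0.808% of the summed CPM of all 38 genes in basal WT (mean ± SD, n = 5) and 27.8 ± 0.631% in cytokine-treated WT. In KO the share was 70.6 ± 1.10% under basal conditions (n = 8) and 26.1 ± 1.27% with cytokines. Sprr2 genes took 20.8 ± 1.96% and 60.5 ± 2.46% in WT, and 18.1 ± 1.45% and 61.3 ± 1.85% in KO. The Lce3 share was 0.504 ± 0.0619% and 7.31 ± 0.990% in WT and 0.508 ± 0.0660% and 9.05 ± 0.527% in KO, while the Lce1 share was 10.5 ± 1.55% and 4.27 ± 1.13% in WT and 10.5 ± 1.43% and 3.59 ± 0.536% in KO. Summed over the family, CPM was 3640 ± 1083 in basal WT, 7946 ± 2425 in cytokine-treated WT, 3111 ± 999.9 in basal KO and 5392 ± 1428 in cytokine-treated KO. No test was run on these sums.

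**Figure D2:**
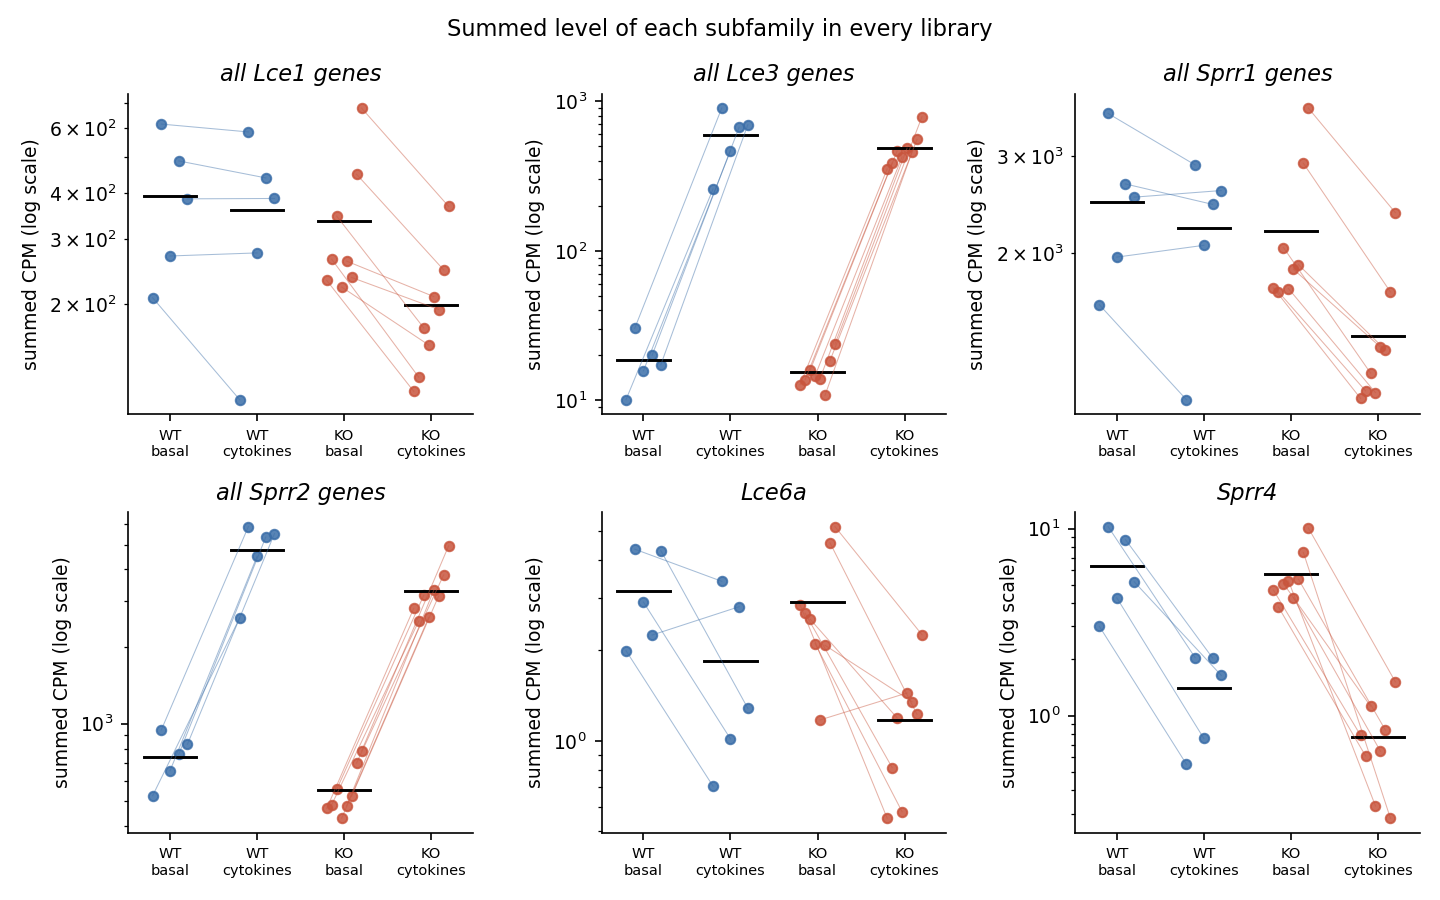
Summed CPM of each subfamily on log axes in every library of the 4 groups, with bars at the group means and thin lines joining the libraries of 1 mouse. Lce3 and Sprr2 totals are higher with cytokines in all 13 mice, and Lce1 and Sprr1 totals are lower with cytokines in all 8 KO mice.

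With cytokines, 16 of the 37 genes tested rose in WT and 3 fell, and in KO 15 rose and 14 fell. Over all 16893 genes, 8.65% were called higher and 5.26% lower in WT, and 6.33% higher and 4.55% lower in KO. The rises in both genotypes were those of all 6 Lce3 genes and of 9 of 12 Sprr2 genes, together with Lce1g in WT. The median log2 fold change in WT and KO was 5.06 and 5.02 for Lce3, 3.36 and 3.16 for Sprr2 and −0.31 and −0.93 for Lce1, against 0.01 and 0.00 for all genes tested.

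Lce3 genes, whose products are tied to barrier repair and have antimicrobial activity, differed in their basal levels, with Lce3a and Lce3b lowest per length. Lce3a stood at 0.243, 0.830, 0.161, 0.0944 and 0.425 CPM in basal WT and at 26.7, 84.1, 53.9, 65.1 and 75.0 CPM in cytokine-treated WT (mice 1 to 5). In KO its lowest, median and highest values were 0, 0.162 and 0.651 CPM under basal conditions and 38.6, 50.5 and 85.6 CPM with cytokines. Every treated library was above every basal one. Its log2 fold change was 7.51 ± 0.45 in WT (edgeR adjusted p = 8.83e-14) and 7.61 ± 0.36 in KO (edgeR adjusted p = 3.45e-16). The basal level rested on 6 to 42 counts per library in WT and 0 to 48 in KO, so these fold changes are imprecise.

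Lce3b, its neighbour on the other strand, stood at 0.104, 0.869, 0.419, 1.68 and 0.473 CPM in basal WT and at 30.0, 116, 56.5, 88.5 and 86.5 CPM in cytokine-treated WT. In KO the lowest, median and highest values were 0.213, 0.398 and 0.774 CPM and, with cytokines, 50.3, 61.9 and 111 CPM. WT 1 had the lowest treated level of Lce3b, as it had of Lce3a, and no treated library overlapped a basal one. The log2 fold change was 6.70 ± 0.41 in WT (edgeR adjusted p = 1.93e-13) and 7.31 ± 0.35 in KO (edgeR adjusted p = 3.97e-16). As for Lce3a, these fold changes are imprecise, with 6 to 107 counts per basal WT library and 11 to 40 per basal KO library.

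Lce3c, the most abundant Lce3 gene per length under basal conditions and level with Lce3d in treated WT, had 4.79, 12.8, 7.25, 8.54 and 8.48 CPM in basal WT and reached 71.8, 240.3, 129.5, 179.7 and 187 CPM with cytokines. In KO it ran from 4.44 over a median of 6.27 to 10.9 CPM under basal conditions and from 89.3 over 121 to 204 CPM with cytokines. Again the treated and basal libraries did not overlap, and the rise was 4.27 ± 0.30 in WT (edgeR adjusted p = 3.35e-12) and 4.20 ± 0.24 in KO (edgeR adjusted p = 2.28e-14). Lce3d, Lce3e and Lce3f rose by between 4.75 and 5.26 on the log2 scale in both genotypes. Within mice, the summed Lce3 level was higher with cytokines in 5 of 5 WT and 8 of 8 KO mice, on average by 4.97 ± 0.24 (SD) and 4.97 ± 0.21 on the log2 scale.

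**Figure D3:**
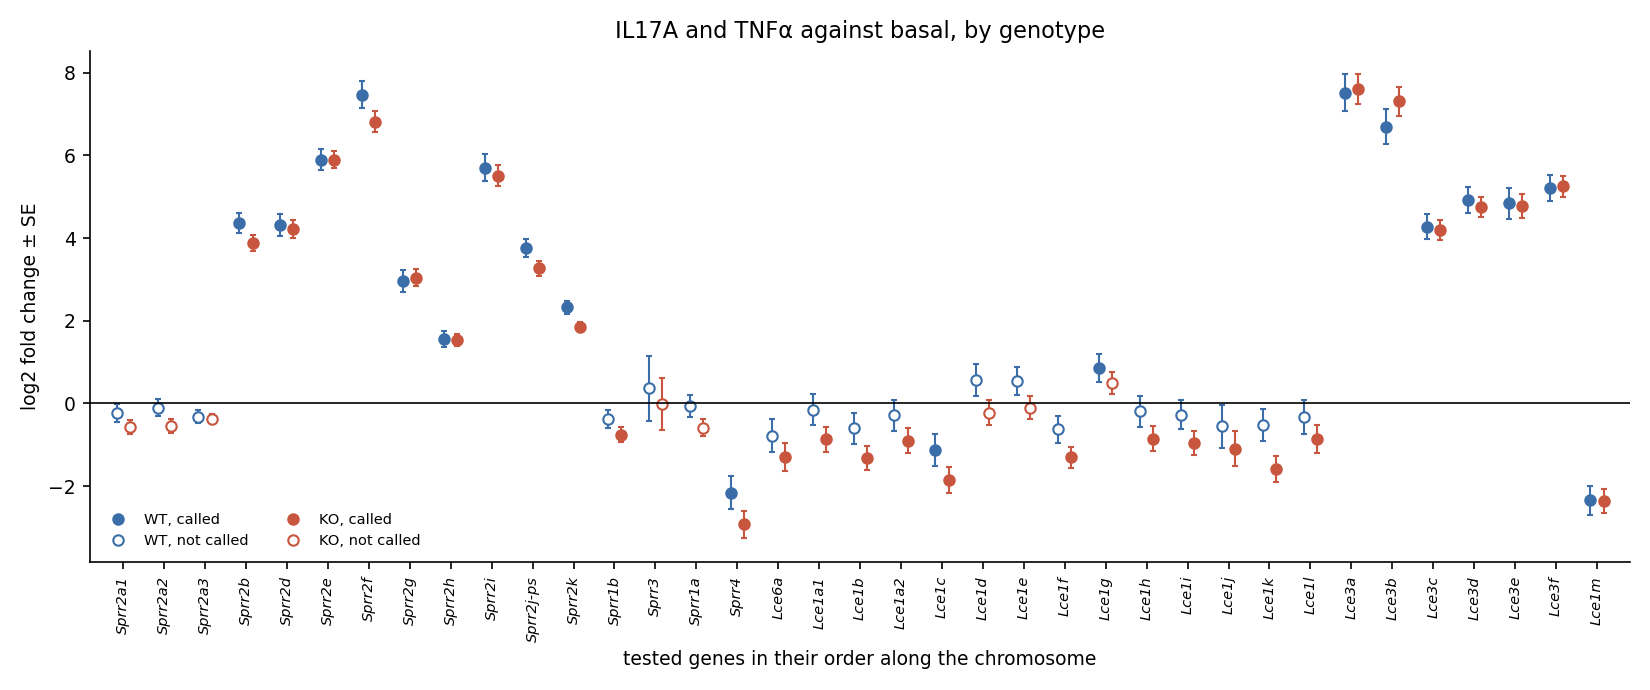
Log2 fold change ± SE of cytokine-treated against basal libraries for the 37 tested genes in chromosome order, in WT and KO (filled symbols, called; open symbols, not called). The Lce3 genes and 9 Sprr2 genes lie well above 0 in both genotypes, and Lce1m, Sprr4 and the Sprr2a genes lie below it, the Sprr2a genes between −0.57 and −0.11.

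Sprr2 genes encode short bridging proteins that are known to respond to stress and inflammation, and 9 of 12 rose in both genotypes. Sprr2f, which had the largest rise of them, stood at 0.417, 1.07, 0.612, 0.897 and 1.13 CPM in basal WT and at 70.9, 201, 119, 159.8 and 164 CPM with cytokines. In KO the lowest, median and highest values were 0.515, 0.914 and 1.94 CPM under basal conditions and 73.9, 111 and 170.3 CPM with cytokines. All treated libraries were above all basal ones. The rise was 7.46 ± 0.33 in WT (edgeR adjusted p = 1.07e-16) and 6.81 ± 0.25 in KO (edgeR adjusted p = 1.33e-18).

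Sprr2e had 7.78, 12.7, 9.53, 7.57 and 11.1 CPM in basal WT and 319, 759.5, 509, 639.7 and 652 CPM with cytokines. In KO it ran from 4.94 over 6.51 to 8.83 CPM under basal conditions and from 259.6 over 383 to 605 CPM with cytokines. Treated and basal libraries did not overlap, and the log2 fold change was 5.89 ± 0.25 in WT (edgeR adjusted p = 9.66e-17) and 5.90 ± 0.20 in KO (edgeR adjusted p = 3.88e-19). Sprr2d, the most abundant Sprr2 gene per length with cytokines, below Sprr2h under basal conditions, had 54.8, 115, 72.6, 75.4 and 92.8 CPM in basal WT and 807, 2019, 1544, 1871 and 1884 CPM with cytokines. KO values ran from 43.0 over 50.1 to 92.7 CPM and, with cytokines, from 809 over 1054 to 1623 CPM. It rose by 4.31 ± 0.27 in WT (edgeR adjusted p = 2.22e-13) and by 4.22 ± 0.21 in KO (edgeR adjusted p = 1.37e-15), and WT 1 and WT 2 were again the lowest and the highest of the treated WT libraries.

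The other Sprr2 genes that rose were Sprr2b, described with the genotypes below, Sprr2g, Sprr2h, Sprr2i, Sprr2j-ps and Sprr2k. Their log2 fold changes ran from 1.56 for Sprr2h to 5.70 for Sprr2i in WT and from 1.53 to 5.51 for the same genes in KO. The near copies Sprr2a1, Sprr2a2 and Sprr2a3 did not rise. Their log2 fold changes were −0.23, −0.11 and −0.32 in WT (edgeR adjusted p = 0.463, 0.750 and 0.130). In KO they were −0.57, −0.55 and −0.38 (edgeR adjusted p = 0.0112, 0.0104 and 0.0195), not called because the fold change was under 1.5. Sprr2a1 and Sprr2a2 were called lower at −0.71 and −0.65 without KO 4 and at −0.60 and −0.59 without KO 6, and Sprr2a3 was lower with cytokines in all 13 mice. Within mice, the summed Sprr2 level was higher with cytokines in 5 of 5 WT and 8 of 8 KO mice, by 2.65 ± 0.21 and 2.57 ± 0.13 (mean log2 ± SD).

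Sprr1a, the most abundant Sprr1 gene per length, stood at 1073, 2444, 1320.1, 1799.8 and 1706 CPM in basal WT and at 747, 2161, 1494, 1752 and 1854 CPM with cytokines. In KO the lowest, median and highest values were 1129, 1273 and 2534 CPM and, with cytokines, 743, 882 and 1723 CPM. The groups overlapped in both genotypes. The log2 fold change was −0.06 ± 0.26 in WT (edgeR adjusted p = 0.895) and −0.58 ± 0.21 in KO (edgeR adjusted p = 0.0318), which was not called because the fold change was under 1.5. It was called, at between −0.61 and −0.59, without any 1 of WT 1, WT 2, WT 3, WT 5, KO 2, KO 4, KO 5, KO 6 or KO 8, and also with all mice under the filterByExpr filter, with only the 2 groups compared, or with no fold threshold.

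Sprr1b, the second cross-bridging gene of this kind, had 541, 1146, 649.6, 874 and 824 CPM in basal WT and 339, 734, 576, 703 and 747 CPM with cytokines. In KO it ran from 545 over 618 to 1137 CPM under basal conditions and from 312 over 387 to 648 CPM with cytokines. KO 8 was the highest library in both KO groups. Sprr1b fell by 0.76 ± 0.18 on the log2 scale in KO (edgeR adjusted p = 0.0014), and its value in WT was −0.38 ± 0.22 (edgeR adjusted p = 0.215). With the mouse block the WT value was −0.39 ± 0.07 (edgeR adjusted p = 9.14e-05), under the fold threshold, and Sprr1b was lower in 5 of 5 WT mice. Summed over both genes, Sprr1 was lower with cytokines in 3 of 5 WT and 8 of 8 KO mice, by −0.18 ± 0.27 and −0.63 ± 0.11 (mean log2 ± SD, not tested).

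Sprr4, known for induction by ultraviolet light, stood at 3.003, 10.3, 4.27, 8.73 and 5.20 CPM in basal WT and at 0.551, 2.04, 0.756, 2.04 and 1.64 CPM with cytokines. In KO the lowest, median and highest values were 3.81, 5.17 and 10.1 CPM and, with cytokines, 0.283, 0.716 and 1.52 CPM. Every treated library was below every basal one of its genotype. Sprr4 fell by 2.16 ± 0.40 in WT (edgeR adjusted p = 8.89e-05) and by 2.93 ± 0.33 in KO (edgeR adjusted p = 4.07e-08) on the log2 scale. For Sprr3 only 0 to 32 counts per library were recorded. Its basal WT values were 0.139, 0.316, 0.161, 0.0629 and 0.331 CPM and its treated WT values 0.198, 0.226, 0.438, 0.433 and 0 CPM. In KO it ran from 0 over 0.303 to 0.459 CPM and, with cytokines, from 0.163 over 0.210 to 0.412 CPM. All groups overlapped, and a change of Sprr3 was not detectable at this depth (0.36 ± 0.79 in WT, edgeR adjusted p = 0.779).

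Lce1 genes, which belong to the normal programme of the upper epidermis, were mostly not called in WT and mostly fell in KO, with 11 of 14 log2 fold changes below 0 in WT and 13 of 14 in KO. In WT, Lce1g rose by 0.86 ± 0.34 (edgeR adjusted p = 0.058), Lce1c fell by 1.12 ± 0.39 (edgeR adjusted p = 0.0271) and Lce1m fell as well. The Lce1g call was lost at 0.80 without WT 2, 0.80 without WT 3 and 0.81 without WT 5, and at an adjusted p under 0.05. In KO, 11 of 14 Lce1 genes fell, all but Lce1d, Lce1e and Lce1g, by between 0.85 and 2.36 on the log2 scale. The fall of Lce1j in KO was not called at −0.97 without KO 4, −1.03 without KO 6 and −0.93 without KO 8, and that of Lce1l at −0.77 without KO 7.

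Lce1m, which lies apart from the other Lce1 genes beyond the Lce3 cluster, had 3.96, 16.4, 7.60, 9.16 and 8.74 CPM in basal WT and 1.04, 2.73, 1.43, 2.34 and 1.48 CPM with cytokines. KO libraries ran from 3.42 over 5.54 to 13.98 CPM under basal conditions and from 0.753 over 1.18 to 1.90 CPM with cytokines. No treated library overlapped a basal one of its genotype. Lce1m fell by 2.34 ± 0.36 in WT (edgeR adjusted p = 5.22e-06) and by 2.36 ± 0.29 in KO (edgeR adjusted p = 1.20e-07).

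Lce1a2, the most abundant Lce1 gene per length, had 42.2, 109, 47.2, 91.2 and 68.1 CPM in basal WT and 16.3, 96.5, 45.7, 75.4 and 58.6 CPM with cytokines. Its KO values ran from 37.6 over 45.8 to 124 CPM and, with cytokines, from 15.4 over 29.7 to 60.1 CPM. It was lower with cytokines in 5 of 5 WT and 8 of 8 KO mice, although the groups overlapped. The fall in KO was called (−0.90 ± 0.30, edgeR adjusted p = 0.0234) and the value in WT was not (−0.29 ± 0.38, edgeR adjusted p = 0.621). Lce6a, the only gene of its subfamily, stood at 1.996, 4.35, 2.90, 2.25 and 4.30 CPM in basal WT, and 0.706, 3.40, 1.01, 2.80 and 1.28 CPM with cytokines. Its KO values ran from 1.17 over 2.60 to 5.17 CPM and, with cytokines, from 0.552 over 1.21 to 2.26 CPM. Lce6a fell by 1.30 ± 0.33 in KO (edgeR adjusted p = 0.00299), and its WT value was −0.78 ± 0.41 (edgeR adjusted p = 0.161), with overlapping groups in both. In WT it was called at −0.999 without WT 2 and −1.07 without WT 4.

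With the mouse as a replicate block, which compares the basal and treated libraries of the same animal, 8 genes instead of 3 fell in WT, against 5.39% of all genes tested. The additional genes were Lce1b, Lce1f, Lce1j, Lce1k and Lce6a, with log2 fold changes of −0.71, −0.68, −0.79, −0.63 and −0.95 and edgeR adjusted p of 0.000264, 0.000734, 0.0877, 0.00191 and 0.0344 in the same order. Summed Lce1 levels changed with cytokines by −0.92, −0.07, 0.03, −0.15 and 0.00 on the log2 scale in WT mice 1 to 5 (mean −0.22 ± 0.39 SD), so the mean rests on WT 1. In KO they were lower in 8 of 8 mice (−0.74 ± 0.32).

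Whether the cytokine response differed between genotypes was tested as an interaction. Without the block, edgeR called 0 of 37 genes higher and 0 lower, against 0.0355% and 0.184% of all genes. At an unadjusted p under 0.05 there were 0 higher and 2 lower, against 9.13% of all genes in both directions together, and DESeq2 called 0 in either direction. The median was −0.67 on the log2 scale for Lce1, −0.01 for Lce3 and −0.26 for Sprr2, against −0.01 for all genes tested. With the mouse block, 6 genes were called lower, against 0.379% of all genes: Lce1c at −0.68 ± 0.16, Lce1d at −0.71 ± 0.16, Lce1f at −0.63 ± 0.18, Lce1i at −0.66 ± 0.18, Lce1k at −0.95 ± 0.19 and Sprr2f at −0.64 ± 0.17 (edgeR adjusted p of 0.0363, 0.0216, 0.0984, 0.0683, 0.0102 and 0.0590). For these genes the cytokine-treated level relative to the basal level was lower in KO than in WT. The basal level of Sprr2f rested on 24 to 57 counts per library in WT and 34 to 100 in KO. Its difference between KO and WT was not called, at 0.29 ± 0.36 under basal conditions and −0.36 ± 0.20 with cytokines (edgeR adjusted p = 0.696 and 0.407). With the block 4 more genes had an edgeR adjusted p under 0.1 and were not called because the fold was under 1.5, namely Sprr1a at −0.49 ± 0.09, Sprr1b at −0.36 ± 0.09, Lce1e at −0.56 ± 0.16 and Sprr2b at −0.48 ± 0.14 (edgeR adjusted p = 0.00449, 0.0370, 0.0808 and 0.0890), and Lce1a2 and Lce6a had an edgeR adjusted p of 0.269 and 0.818.

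Under basal conditions, 0 of 37 genes were higher and 1 was lower in KO than in WT, against 1.61% and 1.07% of all genes tested. DESeq2 called the same numbers, and an unadjusted p under 0.05 was reached by 0 genes on the higher side and 4 on the lower side, against 22.4% of all genes in both directions together. The log2 differences were below 0 for 33 of 37 genes, with a median of −0.26 against 0.00 for all genes. Without WT 2 they were below 0 for 19 of 37 genes, with a median of −0.03. The called gene was Sprr2a3, whose product belongs to the bridging proteins with reported bactericidal activity.

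Sprr2a3 had 147, 266, 234, 227 and 247 CPM in basal WT, and in basal KO its lowest, median and highest values were 133, 141 and 195 CPM. With cytokines it had 112, 199, 209.7, 195 and 183 CPM in WT and 96.9, 107 and 168 CPM in KO. WT 1 lay among the KO libraries under both conditions, and the 4 other basal WT libraries were above all basal KO libraries. KO was lower by −0.59 ± 0.14 under basal conditions (edgeR adjusted p = 0.00572) and by −0.65 ± 0.14 with cytokines (edgeR adjusted p = 0.0190). The basal value lies close to the fold threshold: the call was lost without any 1 of WT 2, WT 3, WT 4, WT 5, KO 2, KO 3, KO 4, KO 5 or KO 6, where the value was between −0.58 and −0.52. The call with cytokines held under all 20 alternatives, between −0.78 and −0.59.

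Leaving out 1 mouse also changed the number of genes called lower under basal conditions. It was 5 without WT 1 (Lce1m, Lce3b, Sprr2a3, Sprr2d and Sprr2e), 4 without KO 8 and 3 without KO 7. Over all genes, 207 of 16868 were called lower without KO 7, against 181 of 16893 with all mice. The totals over all genes without WT 1 and without KO 8 are not given here. It was 0 without any 1 of WT 2, WT 3, WT 5, KO 2, KO 3, KO 4, KO 5 or KO 6.

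With cytokines, 0 of 37 genes were higher and 4 were lower in KO than in WT, against 0.148% and 0.556% of all genes tested. All 37 log2 differences were below 0, with a median of −0.65 against −0.01 for all genes, and the medians were −0.87 for Lce1, −0.57 for Sprr2, −0.63 for Sprr1 and −0.28 for Lce3. At an unadjusted p under 0.05 there were 24 lower and 0 higher, against 15.0% of all genes in both directions together. DESeq2 called 5 lower and 0 higher, against 119 lower and 34 higher of 16893 genes. The same libraries enter every gene, so the shared direction is not 37 separate observations. The 4 called genes were Sprr2b, Sprr2a3, Sprr2a1 and Lce1k.

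Sprr2b, a bridging protein gene that also rose with cytokines, had 202, 441, 459.6, 437 and 435 CPM in cytokine-treated WT, and in cytokine-treated KO its lowest, median and highest values were 163, 199 and 414 CPM. Under basal conditions it had 14.9, 22.3, 18.2, 20.0 and 21.0 CPM in WT and 12.8, 14.1 and 21.0 CPM in KO. The 4 treated libraries of WT 2 to WT 5 were above all treated KO libraries, while WT 1 lay within the KO range. KO was lower by −0.79 ± 0.19 with cytokines (edgeR adjusted p = 0.0322) and by −0.31 ± 0.20 under basal conditions (edgeR adjusted p = 0.387, not called). The call with cytokines was lost at −0.72 without WT 3 and −0.75 without WT 4. Its cytokine rise was 4.36 ± 0.24 in WT (edgeR adjusted p = 2.11e-14) and 3.88 ± 0.19 in KO (edgeR adjusted p = 6.69e-16).

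Sprr2a1 had 5.93, 12.3, 16.6, 16.4 and 12.4 CPM in cytokine-treated WT and 6.07, 7.71 and 10.4 CPM (lowest, median, highest) in cytokine-treated KO. Under basal conditions it had 12.3, 14.6, 15.6, 17.6 and 14.4 CPM in WT and 7.50, 11.5 and 18.2 CPM in KO. WT 1 was below every treated KO library and the 4 other treated WT libraries were above them all. The difference with cytokines was −0.65 ± 0.19 (edgeR adjusted p = 0.0872). It is uncertain as a value of this gene alone, since most of its sequence is shared with Sprr2a2.

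Lce1k had 2.46, 15.0, 5.85, 11.3 and 11.5 CPM in cytokine-treated WT and 2.16, 3.62 and 7.76 CPM (lowest, median, highest) in cytokine-treated KO. Its basal values were 6.72, 20.0, 8.45, 18.4 and 12.7 CPM in WT and 7.06, 9.93 and 22.3 CPM in KO. WT 1 and WT 3 lay within the treated KO range and WT 2, WT 4 and WT 5 above it. The difference was −1.24 ± 0.34 with cytokines (edgeR adjusted p = 0.0696) and −0.18 ± 0.34 under basal conditions (edgeR adjusted p = 0.807). Lce1k also fell with cytokines in KO, by 1.58 ± 0.31 (edgeR adjusted p = 0.000196), with −0.52 ± 0.38 in WT (edgeR adjusted p = 0.326). The genotype calls of Sprr2a1 and Lce1k with cytokines were each lost under 11 of 20 alternatives, in all but 1 of them by leaving out 1 mouse. For Sprr2a1 these were WT 2 to WT 5, KO 1, KO 2, KO 3, KO 5, KO 6 and KO 7, with values between −0.66 and −0.53, and for Lce1k WT 2 to WT 5 and KO 1 to KO 6, with values between −1.36 and −0.98.

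**Figure D4:**
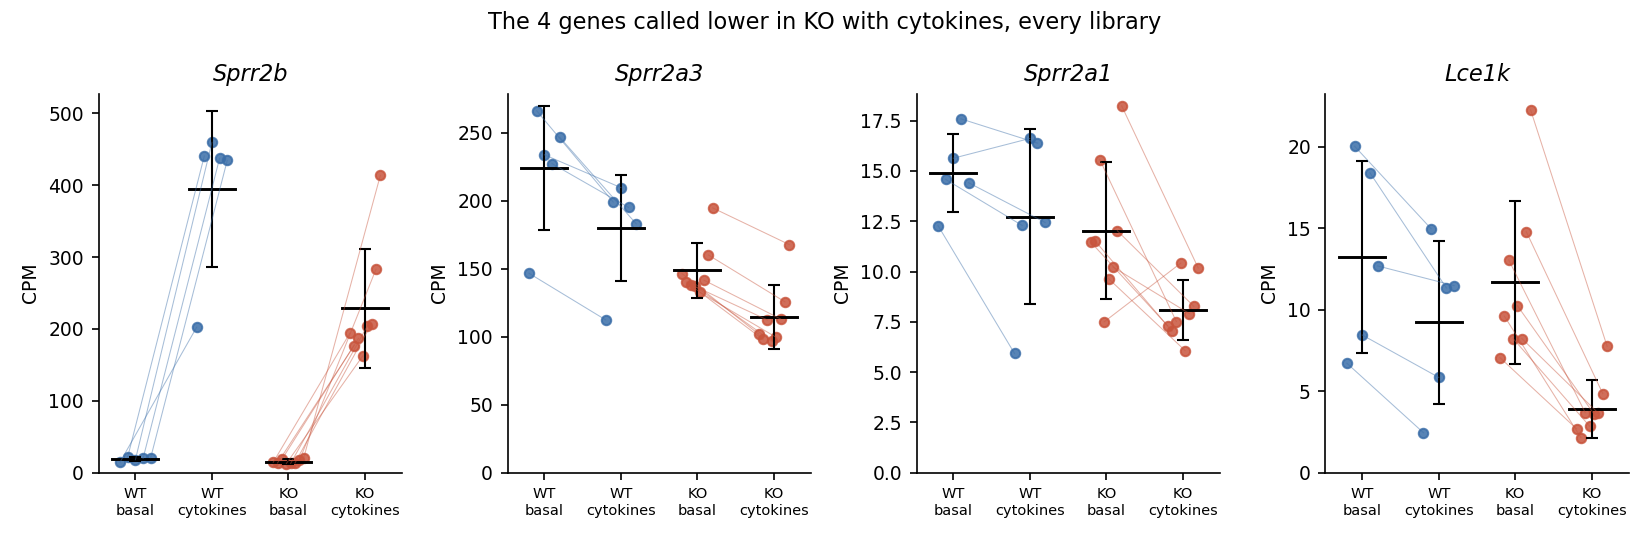
CPM in every library of the 4 genes called lower in KO with cytokines, with bars for the group mean ± SD and thin lines joining the libraries of 1 mouse. In treated WT, 1 library lies apart at 202 CPM of Sprr2b, within the KO range of 163 to 414 CPM, and the 4 other WT libraries lie between 435 and 459.6 CPM.

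The number of genes called lower with cytokines turned on single mice. It was 23 without WT 1 and 22 without KO 8. The totals over all genes without these mice are not given here. The 23 genes without WT 1 were 13 of 14 Lce1 genes, both Sprr1 genes, 7 Sprr2 genes and Sprr4, and the 22 genes without KO 8 were 12 Lce1 genes, both Sprr1 genes, 7 Sprr2 genes and Sprr4. It was 2 without any 1 of WT 2, WT 5, KO 1, KO 2, KO 3, KO 5 or KO 6, where 42 to 61 genes in all were called lower, and 1 without WT 3 or WT 4, where there were 28 and 35, against 94 with all mice. No Lce3 gene was called lower with cytokines in any of these fits.

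**Figure D5:**
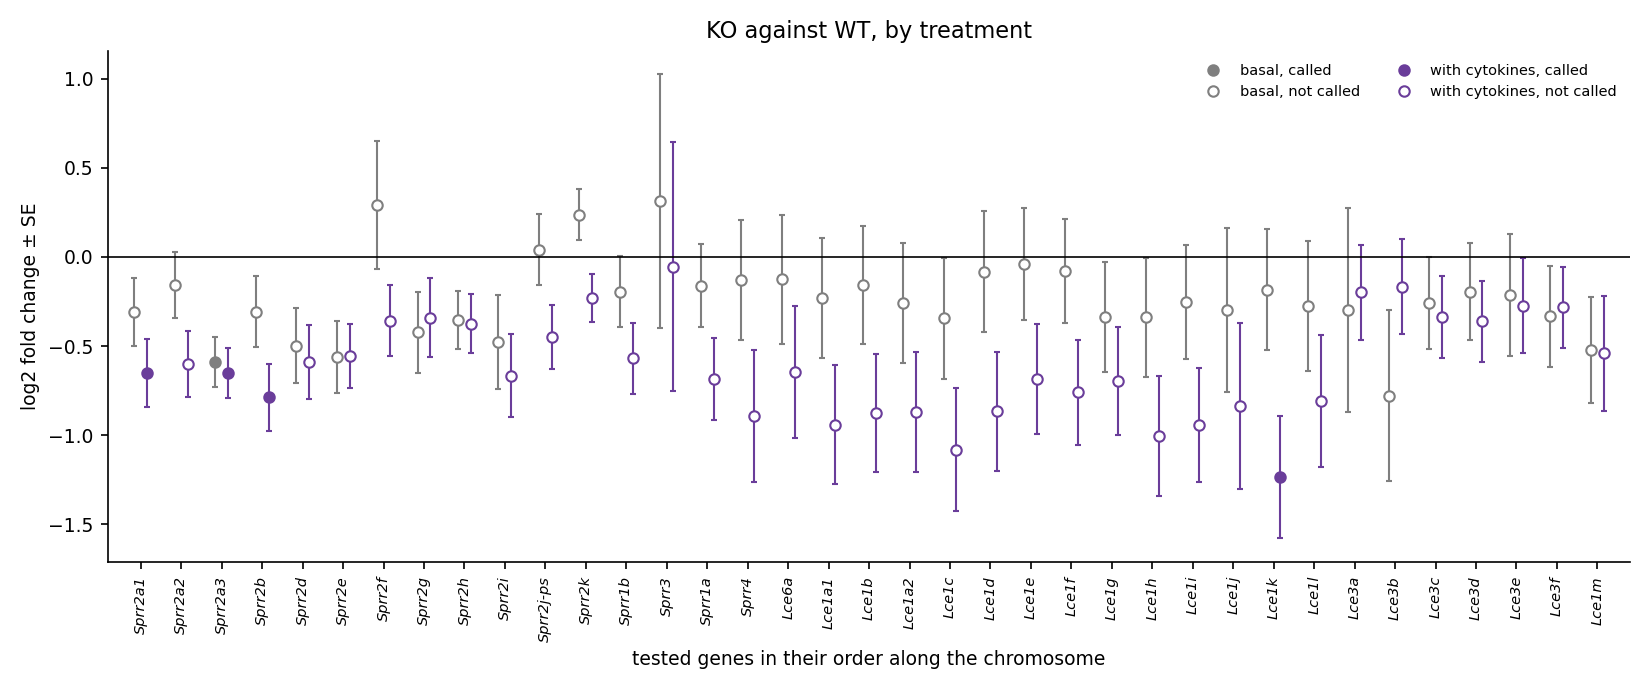
Log2 fold change ± SE of KO against WT libraries for the 37 tested genes in chromosome order, under basal conditions and with cytokines (filled symbols, called; open symbols, not called). With cytokines all 37 values lie below 0, the Lce1 genes have a median of −0.87, and 4 genes are called.

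Mice differed in the level of the whole family in both conditions. Over the summed levels of Lce1, Lce3, Sprr1 and Sprr2 in basal and treated libraries, 8 sums per mouse, WT 2 was the highest WT mouse in 8 of 8 and WT 1 the lowest in 8 of 8. KO 8 was the highest KO mouse in 8 of 8 and KO 7 the next in 8 of 8. The summed Lce1 level in treated WT was 110.5 CPM in WT 1, 585 CPM in WT 2, 276 CPM in WT 3, 439.7 CPM in WT 4 and 387 CPM in WT 5, a 5.30-fold span. In treated KO it ran from 116 over 183 to 368 CPM, a 3.17-fold span. The narrowest spans within a group were those of Sprr2, between 1.81-fold and 2.27-fold.

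Genes that build the envelope alongside the Lce and Sprr proteins were examined as a list of 24, of which 22 were tested. With cytokines 2 rose and 10 fell in each genotype, against 8.65% and 5.26% of all genes in WT and 6.33% and 4.55% in KO. Flg2 and Flg, which encode filaggrins that bundle keratin, and Lor, which encodes loricrin, the main envelope protein, fell, with log2 fold changes of −3.09 ± 0.31, −2.61 ± 0.25 and −2.15 ± 0.30 in WT and −3.44 ± 0.25, −2.84 ± 0.20 and −2.83 ± 0.24 in KO (largest edgeR adjusted p = 1.36e-06, for Lor in WT). Lor stood at 297, 718, 323, 529 and 434 CPM in basal WT and at 49.99, 112, 104, 129.7 and 122 CPM in treated WT. The 2 that rose were Cnfn, for cornifelin, by 2.29 ± 0.23 in WT and 1.81 ± 0.18 in KO, and Rptn, for repetin, by 0.93 ± 0.24 and 0.67 ± 0.19 (edgeR adjusted p = 3.98e-09, 2.37e-09, 0.00301 and 0.00690). In KO against WT, 1.61% of all genes were higher and 1.07% lower under basal conditions, and 0.148% and 0.556% with cytokines. Of the 22 envelope genes, 0 were higher under either condition. Under basal conditions 2 were lower, namely Hrnr (hornerin) at −0.63 ± 0.23 and Tgm3 (a transglutaminase) at −0.60 ± 0.15. With cytokines 8 were lower. The 3 lowest of these 8 were Flg2 at −0.93 ± 0.28, Lor at −0.92 ± 0.26 and Cst6, a protease inhibitor, at −0.89 ± 0.21 (edgeR adjusted p = 0.0900, 0.0728 and 0.0329).

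Of 11 keratins tested, 0 rose and 4 fell with cytokines in each genotype, where 5.26% of all genes fell in WT and 4.55% in KO. Krt10 and Krt1, the keratin pair of early differentiation, and Krt77, a further suprabasal keratin, fell, with log2 fold changes of −5.00 ± 0.32, −4.34 ± 0.24 and −4.76 ± 0.50 in WT and −5.64 ± 0.27, −5.01 ± 0.19 and −3.63 ± 0.39 in KO (edgeR adjusted p between 5.56e-18 and 1.13e-08). Krt1 was also lower in KO than in WT, by −0.75 ± 0.18 under basal conditions and −1.42 ± 0.19 with cytokines (edgeR adjusted p = 0.00776 and 0.000146). Its treated WT libraries had 55.7 to 107 CPM and its treated KO libraries 18.1 to 45.3 CPM, so they did not overlap. Krt77 was lower under basal conditions (−1.01 ± 0.35, edgeR adjusted p = 0.0722) and Krt10 with cytokines (−1.15 ± 0.25, edgeR adjusted p = 0.0226).

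Of 11 tested S100 genes, calcium-binding neighbours in the same complex, 4 rose in WT and 3 in KO and none fell, against 8.65% and 6.33% of all genes that rose. None was called between genotypes, where at most 1.61% of all genes were called in either direction. S100a7a, S100a9 and S100a8, alarmins of inflamed skin, rose by 6.20 ± 0.43, 5.94 ± 0.20 and 5.63 ± 0.24 in WT and by 5.64 ± 0.33, 5.40 ± 0.15 and 5.21 ± 0.19 in KO (largest edgeR adjusted p = 2.65e-12, for S100a7a in WT). Of 31 tested regulators of epidermal differentiation, 6 rose in WT and 4 rose in KO, against 8.65% and 6.33% of all genes. The transcription factor genes Cebpd and Prdm1 and the NF-κB cofactor gene Nfkbiz rose by 1.36 ± 0.13, 1.34 ± 0.18 and 1.11 ± 0.07 in WT and by 1.25 ± 0.10, 1.32 ± 0.14 and 1.13 ± 0.06 in KO. Between genotypes, Fos, a component of AP-1, was higher in KO under basal conditions (0.59 ± 0.18, edgeR adjusted p = 0.0350) and no regulator was called with cytokines. Over all genes, 1.61% were higher and 1.07% lower in KO under basal conditions, and 0.148% and 0.556% with cytokines.

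Keratinocyte markers, led by Krt5, summed to 44185 ± 1522 CPM in basal WT, 34375 ± 829 CPM in treated WT, 43301 ± 2006 CPM in basal KO and 34303 ± 508 CPM in treated KO (mean ± SD). Every treated library, at most at 35471 CPM, was below every basal one, at least at 40546 CPM. Of these 8 markers, 0 rose with cytokines in either genotype, against 8.65% of all genes in WT and 6.33% in KO. In WT 2 fell and in KO 1 fell, against 5.26% and 4.55% of all genes. Between genotypes 0 of 8 were called, against at most 1.61% of all genes in either direction. Melanocyte markers were the only list of another cell type above 20 CPM: the 6 genes, led by Tyrp1, summed to 544 ± 72.9 CPM in basal WT, 433 ± 57.7 CPM in treated WT, 551 ± 56.5 CPM in basal KO and 341 ± 31.5 CPM in treated KO (mean ± SD). With cytokines 1 of 6 fell in WT and 3 of 6 in KO, against 5.26% and 4.55% of all genes. Between genotypes 0 of 6 were called, against at most 1.61% of all genes in either direction. Their part in the Lce and Sprr results was not tested.

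The other marker lists were low in every library. Fibroblast markers summed to 1.69 to 7.43 CPM, led by Pdgfra. With cytokines 1 of 5 tested genes was lower in each genotype, against 5.26% of all genes in WT and 4.55% in KO. Immune markers summed to 1.74 to 16.9 CPM, led by Lyz2, with Cd207 at 0 in all libraries. In this list 0 of 2 tested genes were called, where at most 8.65% of all genes were called in either direction. Endothelial markers summed to 2.19 to 6.77 CPM, led by Pecam1. With cytokines 2 of 3 tested genes were higher and 1 lower in each genotype. Over all genes 8.65% were higher and 5.26% lower in WT, and 6.33% and 4.55% in KO. Pecam1 was higher in basal KO, where 1.61% of all genes were. Hair follicle markers summed to 2.47 to 8.54 CPM, led by Lhx2. Here 1 of 2 tested genes was lower with cytokines in each genotype, against 5.26% of all genes in WT and 4.55% in KO. Their part in the results was not tested either.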

How the data were processed

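The starting table was the authors' deposited table of counts, in whole counts per gene. The authors' deposited log2 table, in log2 of normalized counts, was only compared with it, and the largest difference for a member was 0.00024. The authors sequenced stranded paired reads and used FastQC, STAR 2.7.10b, featureCounts 2.0.6 and DESeq2. Here R 4.3.3, edgeR 4.0.16, limma 3.58.1, DESeq2 1.42.0, Python 3.11.15, pandas 2.3.3, NumPy 2.4.6 and matplotlib 3.10.9 were used. Libraries were grouped by genotype and treatment from their labels, and libraries of 1 mouse were paired by the mouse number in the title. The pairing was examined through correlations of same-mouse deviations from the group mean over all genes, from 0.000509 to 0.254 with a median of 0.106. Over the tested members these correlations ran from −0.452 to 0.692 with a median of 0.108. For the interaction of Lce1k the SE was 0.49 without the mouse block and 0.19 with it. The test had no block, and the mouse block was an alternative.

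The other alternatives were DESeq2 size factors, the DESeq2 test, no filter, the filterByExpr filter, only the 2 groups compared, an adjusted p of 0.05, no fold threshold, each of 13 mice left out, and for promoters 200 bases before the start only. Named genes were the largest called change of each subfamily in each comparison, the genes called between genotypes, the most abundant of each subfamily per length, the members named in the text of the study, and the 3 largest called rises and falls of each list. Members and gene lists were chosen with earlier results of these data known. Reading the naming rule per list, the set of Sprr2 genes that rose and the choice of printed promoters came after values were seen. Lists were envelope partners, S100 genes, keratins, regulators, and markers of keratinocytes, melanocytes, fibroblasts, immune cells, endothelium and hair follicle. Falls of regulators are not reported. Protein sequences were not among the reference sequences used here, so sharing was examined in transcripts only.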

Additional observations from a re-analysis of the deposited data

Results flagged for a closer look

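A library was marked when it lay far from all others of its group by a Dixon ratio test at 1 in 20, so chance alone marks about 1 in 20 groups, and 88 group-and-value pairs were examined. KO 8 was far above the next KO library in the treated group for summed Lce3 (786.1 against 553.8 CPM), Lce3a (85.6 against 58.14), Lce3b (111.3 against 75.62), Sprr1a (1723 against 1205), Sprr2a3 (167.8 against 125.7) and Pla2g4d (59.19 against 42.2). It was also far above in the basal group for Lce1m (13.98 against 7.775) and Sprr2a3 (194.8 against 160.2). WT 1 was far below the next treated WT library for Sprr2a3 (112.5 against 183.1 CPM) and Sprr2b (202.4 against 434.5). These values come from the same few mice and are not separate findings.

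The interaction values called only with the mouse block were marked because the call changed: −0.6797 for Lce1c, −0.7084 for Lce1d, −0.6288 for Lce1f, −0.6643 for Lce1i, −0.9523 for Lce1k and −0.6356 for Sprr2f on the log2 scale. The causes were not tested.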

How the results depend on the processing

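Leaving out 1 mouse gave between 0 and 5 genes called lower in KO under basal conditions, against 1 with all mice, and without the fold threshold there were 2, where the count over all 16893 genes went from 181 to 1024. With cytokines, leaving out 1 mouse gave between 1 and 23, against 4, comparing only the 2 groups gave 9, and an adjusted p under 0.05 gave 2, with 120 and 43 over all genes against 94. The mouse block gave 8 instead of 3 genes that fell with cytokines in WT, and 6 instead of 0 called lower for the interaction. With 200 bases before the start only, 0 instead of 1 Lce3 promoters held TATA and 0 instead of 2 Lce1 promoters held C/EBP. Over all 21770 protein-coding genes the shares went from 13.2% to 9.57% for TATA and from 40.5% to 29.9% for C/EBP. The matches lost there started at −243 in Lce3e, −205 in Lce1j and −245 in Lce1k, counted in bases from the start, outside the shorter window. The cause was not tested in the other cases.

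Group sizes of 5 and 8 leave small differences undetected. Of 120364 counts from 1 to 10, 83.8% were even, and whether the counting unit was the read or the pair was not stated. How reads matching several genes were counted was not stated. Gene positions come from a later annotation release than the authors used.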
